A study of Arabidopsis thaliana with 12 samples.

Results

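The basic leucine zipper (bZIP) proteins are a large family of plant transcription factors that bind DNA as pairs, through a basic region next to a zipper of leucines. The genes described here are BZIP17, BZIP28, BZIP60, EEL, BZIP24, bZIP19, BZIP34, BZIP61, bZIP52 and bZIP58. They were taken by their symbol in the annotation of the array's probes, in any letter case. The rule itself uses no measured value, but the bZIP genes were chosen with earlier results of these data known. The rule found 10 probes, 1 for each of the 10 genes, among 26090 probes on the array, of which 13960 were annotated with 1 gene.

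Transcripts were compared in Arabidopsis thaliana of the Ler ecotype (Landsberg erecta) with 12 dual-channel oligonucleotide arrays. An array held callus, the unorganised growth that an explant forms on auxin-rich callus-inducing medium, and the untreated explant of the same organ side by side. Callus was harvested after 10 days on the medium and the explant at day 0, when it was cut from the plant, and the organs were petal, cotyledon and root with 4 biologically independent replicates each. The dye on callus was Cy5 in odd-numbered replicates and Cy3 in even-numbered ones. The labels give neither the age of the plants nor the number pooled in a sample, and callus and explant differ both in culture on the medium and in 10 days of time, which cannot be told apart here.

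All values below are log2 ratios of callus over explant, so that 1 stands for a doubling. That direction is likely but not stated in the labels, where callus is the first channel and untreated tissue is named as control. Arrays of opposite dye within an organ correlated positively over measured probes, with r from 0.84 to 0.91 in petal, 0.86 to 0.91 in cotyledon and 0.80 to 0.86 in root. Over all values, those at the table's limits of 6.64 and -6.64 included, the root arrays of opposite dye correlated at -0.59 to -0.25. Over the same values, such arrays correlated at -0.09 to 0.43 in cotyledon and 0.31 to 0.91 in petal. If the ratios had been stored as explant over callus, all signs below would turn. None of the 120 ratios of the bZIP genes lay at a limit (0 of 120), and all 10 genes were measured on all 12 arrays and entered the test.

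bZIP proteins act at several places in the cell's signalling. BZIP17 and BZIP28 are held in the membrane of the endoplasmic reticulum (ER) and are cut free when unfolded proteins build up there, while the BZIP60 messenger RNA is spliced by the kinase IRE1. EEL belongs to the abscisic acid group of the family and competes with ABI5 at a late embryogenesis gene promoter in seeds. bZIP19 acts with BZIP23 in the response to zinc deficiency, BZIP24 in the response to salt, and BZIP34 in pollen. For factors regulated by cleavage or splicing, the transcript ratio on an array does not report how much active protein is present.

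EEL and BZIP17 rose in callus of all 3 organs, and BZIP24 and BZIP34 fell in all 3. EEL was 7.94-fold higher in petal callus, 5.87-fold in cotyledon callus and 5.16-fold in root callus than in the explant. BZIP24 was 1.94-fold lower in petal callus, 2.54-fold in cotyledon callus and 8.96-fold in root callus. BZIP34 was 14.4-fold lower in petal callus, 9.43-fold in cotyledon callus and 3.59-fold in root callus, and the petal value rests in part on 1 array, described with the gene. BZIP60 did not pass the test in any organ. In tissue samples such as these, fewer cells of a type and less RNA per cell cannot be told apart.

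The test was limma's moderated test on the 12 arrays, with Benjamini-Hochberg adjustment over 9694 genes and a threshold of 0.05. In petal, 8 of the 10 bZIP genes passed, 3 higher and 5 lower in callus, where 78.6% of all tested genes passed, 45.2% higher and 33.4% lower. In cotyledon, 6 of 10 passed, 3 higher and 3 lower, where 71% of all genes did, 40.7% higher and 30.3% lower. In root, 7 of 10 passed, 2 higher and 5 lower, where 62.8% of all genes did, 39.9% higher and 23% lower. Counted in either direction, these shares lie near the background. The split differed from it in root, with 5 of 10 lower and 2 of 10 higher. It differed the same way in petal, with 5 of 10 lower and 3 of 10 higher. For 10 genes this is a description and no test. The root counts include BZIP17 and BZIP28, whose root calls were each lost under 5 of 22 alternative settings. The median ratio of the bZIP genes was -0.41 in petal, -0.08 in cotyledon and -0.36 in root, against 0.18, 0.13 and 0.18 for all tested genes in the same order of organs. Passing higher in all 3 organs was true of 2 of 10 bZIP genes and 23% of all genes, and passing lower in all 3 of 2 of 10 and 11%.

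**Figure D1:**
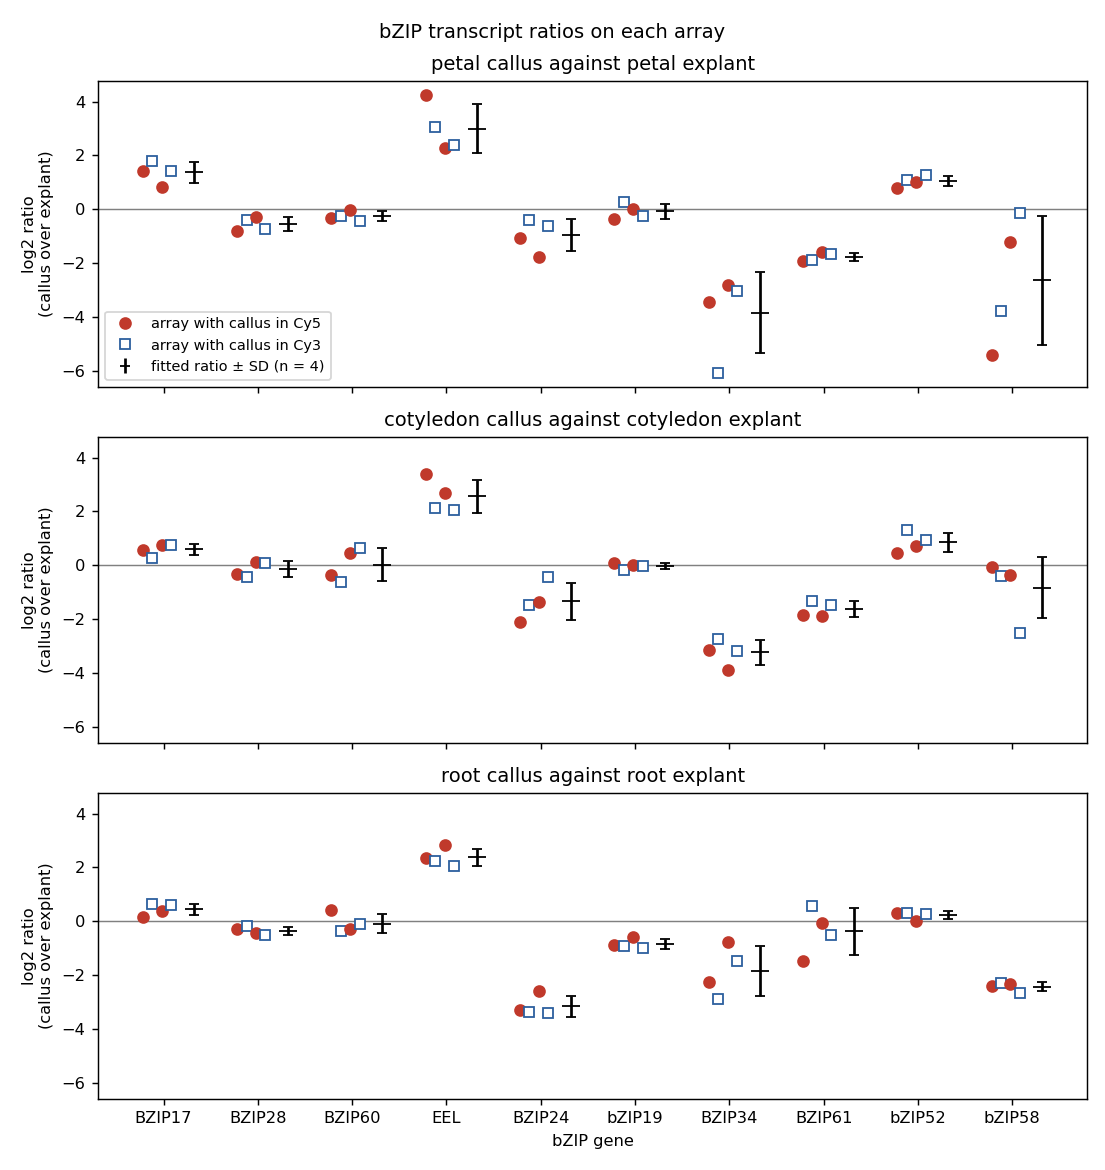
Log2 ratio of callus over explant (vertical axis) of each bZIP gene on each of the 12 arrays, in petal, cotyledon and root, with the fitted ratio and SD of the 4 arrays of an organ. Filled circles are arrays with callus in Cy5 and open squares arrays with callus in Cy3. EEL lies at or above 2.05 on every array and BZIP34 at or below -0.76 on every array, while the BZIP60 ratios lie between -0.63 and 0.64 on both sides of 0.

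EEL had the highest ratio of the 10 genes in every organ. Its log2 ratio was 4.24, 3.05, 2.27 and 2.40 on the petal arrays, 3.37, 2.11, 2.68 and 2.05 on the cotyledon arrays, and 2.35, 2.24, 2.83 and 2.05 on the root arrays. All 12 arrays were above 0 and the organs overlapped. The mean was 2.99 ± 0.90 in petal (adjusted p = 1.6e-06, limma), 2.55 ± 0.62 in cotyledon (adjusted p = 8e-06) and 2.37 ± 0.33 in root (adjusted p = 3.8e-05; SD, n = 4 arrays each). Among the 9694 genes, 368 had a higher ratio in petal, 362 in cotyledon and 89 in root.

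The EEL ratio held with callus in either dye. With callus in Cy5 and in Cy3 it averaged 3.26 and 2.72 in petal, 3.03 and 2.08 in cotyledon, and 2.59 and 2.15 in root. The organs did not differ by the test: petal minus root was 0.62 (95% interval -0.21 to 1.45, adjusted p = 0.175, limma), petal minus cotyledon 0.44 (-0.39 to 1.27, adjusted p = 0.357) and cotyledon minus root 0.19 (-0.64 to 1.01, adjusted p = 0.701). These intervals allow differences of more than 1 log2 unit, so a difference between organs was not detectable rather than absent. Without petal replicate 3, the lowest petal array, petal minus root was 1.01 (adjusted p = 0.0114) and petal minus cotyledon 0.83 (adjusted p = 0.0343). Without petal replicate 1, the highest, they were 0.27 (adjusted p = 0.484) and 0.087 (adjusted p = 0.843).

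EEL is known for its action in seeds, but none of the 14 genes of a seed maturation list, which holds EM1 and EM6, had a probe with a gene name here (0 of 14). Over the 12 arrays, the 2 named genes with the ratios most like those of EEL were iqd15 and IAA30, with root mean square differences of 0.423 and 0.461 log2 units, against a median of 2.74 over the 1088 genes searched. IAA30 belongs to the Aux/IAA family of auxin response regulators and iqd15 to a family of calmodulin-binding proteins.

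BZIP17 rose in callus of every organ, more in petal than in the others. On the log2 scale it had 1.43, 1.79, 0.82 and 1.42 on the petal arrays, 0.57, 0.29, 0.74 and 0.74 on the cotyledon arrays, and 0.18, 0.62, 0.37 and 0.61 on the root arrays. All 12 ratios were above 0, and the lowest petal ratio exceeded the highest of the other organs. The mean was 1.37 ± 0.40 in petal (adjusted p = 4.4e-06, limma), 0.59 ± 0.22 in cotyledon (adjusted p = 0.0028) and 0.44 ± 0.21 in root (adjusted p = 0.016; SD, n = 4 arrays each). Petal minus root was 0.92 (95% interval 0.49 to 1.35, adjusted p = 0.00205) and petal minus cotyledon 0.78 (0.35 to 1.21, adjusted p = 0.00714). Cotyledon minus root was 0.14 (-0.29 to 0.57, adjusted p = 0.566).

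The root increase of BZIP17 was small, and its call depended on single arrays and on scaling. It did not pass without root replicate 2 (0.42, adjusted p = 0.0585, limma), 3 (0.43, 0.0542) or 4 (0.42, 0.0561), nor with each array centred on its tested probes (0.28, 0.0981) or on all its values (0.37, 0.202).

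BZIP28, the closest relative of BZIP17 here by mode of activation, had ratios below 0 in petal and root. Its log2 ratio was -0.81, -0.40, -0.28 and -0.74 on the petal arrays, -0.33, -0.43, 0.13 and 0.07 on the cotyledon arrays, and -0.28, -0.18, -0.44 and -0.51 on the root arrays. Every petal and root array was below 0, and the cotyledon arrays lay on both sides. The mean was -0.56 ± 0.26 in petal (adjusted p = 0.00204, limma), -0.14 ± 0.28 in cotyledon (adjusted p = 0.348) and -0.35 ± 0.15 in root (adjusted p = 0.0326; SD, n = 4 arrays each). BZIP28 was thus 1.47-fold lower in petal callus and 1.28-fold lower in root callus than in the explants.

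Both BZIP28 calls depended on a setting. The petal call was lost with arrays centred on all their values (-0.14, adjusted p = 0.535, limma). The root call was lost without root replicate 1 (-0.37, 0.0666), 3 (-0.32, 0.112) or 4 (-0.30, 0.125), with centring on all values (-0.43, 0.0883) and with ratios at a limit kept (-0.35, 0.0592). No difference between organs passed for BZIP28: petal minus root was -0.21 (adjusted p = 0.350), cotyledon minus root 0.21 (adjusted p = 0.346), and petal minus cotyledon -0.42 (95% interval -0.82 to -0.02, adjusted p = 0.0775). The last of these passed without petal replicate 3 (-0.52, adjusted p = 0.0448), without cotyledon replicate 2 (-0.52, 0.0489) and with centring on tested probes (-0.48, 0.0469).

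BZIP60 had log2 ratios of -0.34, -0.24, -0.02 and -0.43 in petal, -0.35, -0.63, 0.44 and 0.64 in cotyledon, and 0.43, -0.37, -0.29 and -0.11 in root. The petal arrays were all below 0, and those of the other organs were on both sides of it. The mean was -0.26 ± 0.18 in petal (95% interval -0.71 to 0.20, adjusted p = 0.266, limma), 0.03 ± 0.61 in cotyledon (-0.42 to 0.48, adjusted p = 0.911) and -0.09 ± 0.36 in root (-0.54 to 0.37, adjusted p = 0.736; SD, n = 4 arrays each). These intervals leave out a doubling and a halving of the BZIP60 transcript. Changes that lie within the intervals could not be told apart from no change. The probe's place relative to the spliced stretch was not analysed here.

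Of 32 genes in a list of the ER stress response, 5 had a named probe and 4 were tested. ATERDJ3B, the other one, was at a limit on most arrays. In petal, 3 of the 4 rose and 1 fell, in cotyledon 3 rose and 1 did not pass, and in root 1 rose, 2 fell and 1 did not pass. Of all tested genes, 78.6% passed in petal, 71% in cotyledon and 62.8% in root, with 45.2%, 40.7% and 39.9% higher, so these counts by themselves mark nothing about the list. The median ratio was 0.98 in petal, 0.47 in cotyledon and -0.26 in root. These are few genes, and the list holds folding and degradation factors that work outside stress as well.

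CRT1b, a calreticulin that helps newly made glycoproteins fold in the ER, differed most between organs among these 4 genes. Its log2 ratio was 2.28, 2.03, 2.29 and 1.58 on the petal arrays, 1.43, 1.65, 1.79 and 1.87 on the cotyledon arrays, and -0.44, -0.33, -0.29 and -1.20 on the root arrays. The root arrays lay wholly below 0 and below those of the other organs. The mean was 2.04 ± 0.33 in petal, 1.69 ± 0.19 in cotyledon and -0.57 ± 0.43 in root (SD, n = 4 arrays each). Petal minus root was 2.61 and cotyledon minus root 2.25, and both passed under every one of 22 alternative settings. The fall in root alone was lost without root replicate 4 (-0.37, adjusted p = 0.0538, limma) and with root fitted on its own (-0.57, 0.0535).

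DER1 and OS9 take part in the disposal of misfolded ER proteins. DER1 had a mean ratio of -0.61 ± 0.13 in petal, 0.09 ± 0.32 in cotyledon and -0.62 ± 0.13 in root (SD, n = 4 arrays each), and passed as lower in petal and root. Its petal call was lost with centring on all values (-0.19, adjusted p = 0.402, limma). OS9 had 0.36 ± 0.08 in petal, 0.49 ± 0.03 in cotyledon and 0.04 ± 0.21 in root, and passed as higher in petal and cotyledon. Its petal call was lost with centring on tested probes (0.18, adjusted p = 0.102).

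AT5G07340, for which no gene name was given, had 1.61 ± 0.27 in petal, 0.45 ± 0.26 in cotyledon and 0.50 ± 0.22 in root (SD, n = 4 arrays each) and passed as higher in all 3. The petal ratio exceeded the cotyledon ratio by 1.15 and the root ratio by 1.11, and both differences passed. Of its calls, that in cotyledon was lost without cotyledon replicate 2 (0.39, adjusted p = 0.0544, limma) or 4 (0.34, 0.0665). That in root was lost with centring on tested probes (0.33, 0.057) or on all values (0.42, 0.129).

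Of 4 genes in a list of proteases and kinases of ER stress signalling, AT4G20310 alone was tested. Its ratio was 0.29 ± 0.49 in petal (adjusted p = 0.0469, limma), -0.40 ± 0.13 in cotyledon (adjusted p = 0.0118) and 0.19 ± 0.23 in root (adjusted p = 0.189; SD, n = 4 arrays each). The petal call was lost under 16 of 22 alternatives, with adjusted p from 0.00125 to 0.413, and the cotyledon call without cotyledon replicate 4 (-0.33, 0.0654) and with centring on all values (-0.23, 0.376). Neither the chaperone genes BIP1 to BIP3 nor IRE1 was among the genes tested.

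**Figure D2:**
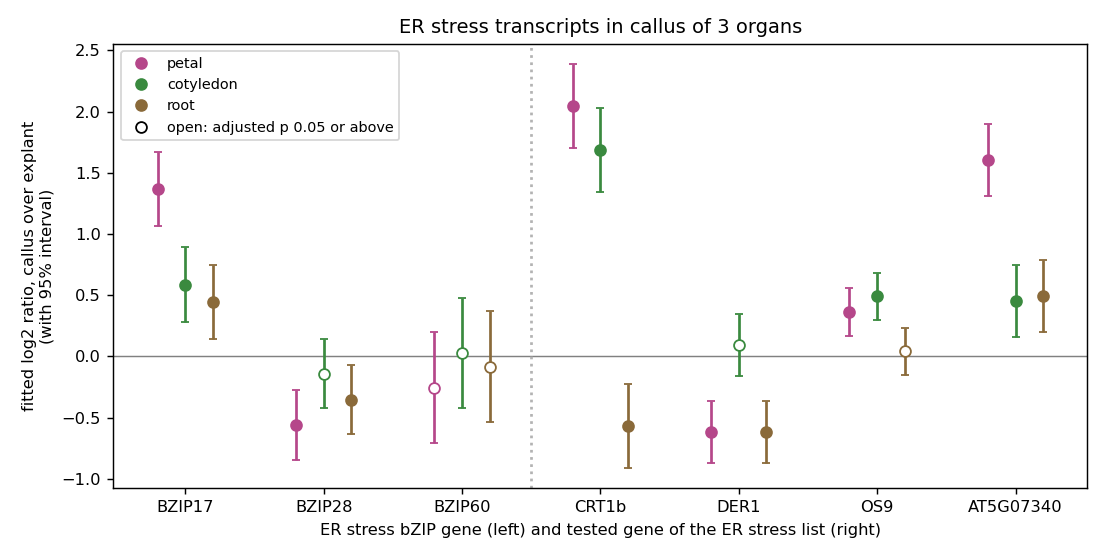
Fitted log2 ratio of callus over explant with its 95% interval (vertical axis) for BZIP17, BZIP28 and BZIP60 and for the 4 tested genes of the ER stress list, in petal, cotyledon and root. Filled marks passed the test at an adjusted p under 0.05 and open marks did not. CRT1b stands at 2.04 in petal and 1.69 in cotyledon but at -0.57 in root, and BZIP17 stands above 0 in all 3 organs.

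BZIP24, a group F factor known as a regulator of salt tolerance, fell in every organ and most in root. The log2 ratio of BZIP24 was -1.06, -0.39, -1.76 and -0.61 on the petal arrays, -2.12, -1.46, -1.35 and -0.45 on the cotyledon arrays, and -3.30, -3.38, -2.58 and -3.39 on the root arrays. Every ratio was below 0, and the highest root ratio lay below the lowest of the other organs. The mean was -0.95 ± 0.60 in petal (adjusted p = 0.00522, limma), -1.35 ± 0.69 in cotyledon (adjusted p = 0.000665) and -3.16 ± 0.39 in root (adjusted p = 6.2e-06; SD, n = 4 arrays each). Of the 9694 genes, 53 had a lower ratio in root.

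Petal minus root was 2.21 for BZIP24 (adjusted p = 0.000406, limma) and cotyledon minus root 1.82 (adjusted p = 0.00167), while petal minus cotyledon was 0.39 (adjusted p = 0.390). With callus in Cy5 and in Cy3 the ratio averaged -1.41 and -0.50 in petal, -1.74 and -0.96 in cotyledon, and -2.94 and -3.39 in root, so root was lowest within each dye. The petal call was lost with arrays centred on all their values (-0.53, adjusted p = 0.0858). The most similar named genes over the 12 arrays were NQR and ZCF37, at root mean square differences of 0.696 and 0.703, against a median of 2.39.

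bZIP19 fell in root callus and did not pass in petal or cotyledon. The arrays gave log2 ratios of -0.35, 0.28, 0.01 and -0.24 on the petal arrays, 0.09, -0.17, 0.00 and -0.02 on the cotyledon arrays, and -0.88, -0.92, -0.58 and -1.004 on the root arrays. The root ratios did not overlap those of either other organ. The mean was -0.07 ± 0.28 in petal (adjusted p = 0.556, limma), -0.02 ± 0.11 in cotyledon (adjusted p = 0.863) and -0.85 ± 0.18 in root (adjusted p = 0.000115; SD, n = 4 arrays each), which is 1.8-fold lower in root callus. Petal minus root was 0.77 (adjusted p = 0.00192) and cotyledon minus root 0.82 (adjusted p = 0.00157), while petal minus cotyledon was -0.05 (adjusted p = 0.812).

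Of 11 genes in a zinc deficiency list, the zinc transporter gene ZIP9 was the one tested. It had a ratio of -0.68 ± 0.54 in petal (adjusted p = 0.0142, limma), 0.07 ± 0.22 in cotyledon (adjusted p = 0.791) and -0.52 ± 0.53 in root (adjusted p = 0.0564; SD, n = 4 arrays each). The petal call was lost without petal replicate 1 (-0.40, 0.0943) or 4 (-0.63, 0.0526), and also with petal fitted on its own or with centring on all values, and root passed under 6 of 22 alternatives, among them without root replicate 1 (-0.66, 0.0477).

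BZIP34 and BZIP61 are close paralogs of group E, and BZIP34 is known from work on pollen development. BZIP34 had log2 ratios of -3.45, -6.08, -2.82 and -3.03 in petal, -3.15, -2.73, -3.88 and -3.19 in cotyledon, and -2.26, -2.89, -0.76 and -1.47 in root. All were below 0, petal replicate 2 stood lowest, and petal and root overlapped. The mean was -3.84 ± 1.51 in petal (adjusted p = 2.6e-05, limma), -3.24 ± 0.48 in cotyledon (adjusted p = 0.000128) and -1.84 ± 0.93 in root (adjusted p = 0.00694; SD, n = 4 arrays each). Without petal replicate 2 the petal mean was -3.10, above the cotyledon mean, and still passed. In the petal arrays 134 of the 9694 genes had a lower ratio, in the cotyledon arrays 170 and in the root arrays 532.

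The difference of BZIP34 between petal and root was -2.00 (adjusted p = 0.0271, limma), and it rested on single arrays. It was lost without root replicate 3 (-1.69, 0.0808) or 4 (-1.76, 0.0766) and moved to -1.26 (0.0494) without petal replicate 2. It was lost also with ratios at a limit kept (-2.00, 0.0534) and with centring on all values (-1.50, 0.0607). Cotyledon minus root was -1.39 (adjusted p = 0.111), which passed without petal replicate 2 (-1.39, 0.0248), an array that enters this contrast through the shared estimate of spread. It passed also in a fit of cotyledon and root without the petal arrays (-1.39, 0.0436).

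Other pollen genes also had low ratios on the petal arrays. Of 13 pollen genes in a list, 4 had a probe and 1, TUA1, was tested, with -1.69 in petal, -0.92 in cotyledon and 0.48 in root. VGDH1, a pectin methylesterase gene of pollen, was not tested because of limits elsewhere but had -3.99, -4.93, -2.31 and -4.97 on the petal arrays. VGD1 had -3.52, -5.23, -2.49 and -4.14 there, and ANX1 had -4.61, -3.48 and -3.22 with replicate 2 at the lower limit. On the cotyledon arrays VGDH1 had -1.35, -4.81 and -0.65 with replicate 4 at the lower limit, and ANX1 had 0.08, -2.65, 0.06 and -2.84. VGD1 had -0.63 and 3.77 on cotyledon replicates 1 and 3, with replicates 2 and 4 at the lower limit. Each of VGDH1, VGD1 and ANX1 was at the upper limit on root replicate 1 and at the lower limit on root replicate 2. On root replicates 3 and 4, VGDH1 had 0.62 and 0.59, and ANX1 had 0.58 and 0.35. VGD1 was at the upper limit on root replicate 3 and had 0.16 on replicate 4. TUA1 passed as higher in root callus (adjusted p = 0.0137, limma), where BZIP34 passed as lower. The part of pollen in the petal ratio of BZIP34 was not tested, and BZIP34 was also low in cotyledon and root callus.

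BZIP61 shared the fall in petal and cotyledon. Its log2 ratio was -1.94, -1.89, -1.60 and -1.67 on the petal arrays, -1.86, -1.31, -1.87 and -1.46 on the cotyledon arrays, and -1.48, 0.57, -0.06 and -0.51 on the root arrays. Petal and cotyledon ratios lay close together, and the root arrays spread across 0. The mean was -1.77 ± 0.16 in petal (adjusted p = 3.6e-05, limma), -1.62 ± 0.28 in cotyledon (adjusted p = 9.2e-05) and -0.37 ± 0.86 in root (adjusted p = 0.187; SD, n = 4 arrays each). That is 3.42-fold lower in petal callus and 3.08-fold lower in cotyledon callus.

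Petal minus root was -1.40 for BZIP61 (adjusted p = 0.00384, limma) and cotyledon minus root -1.25 (adjusted p = 0.00852), while petal minus cotyledon was -0.15 (adjusted p = 0.728). With arrays centred on all their values the first 2 were -0.91 (0.0909) and -1.01 (0.0778). The root mean depended on single arrays: it was -0.65 (adjusted p = 0.0361) without replicate 2, the 1 root array above 0, and -0.034 (adjusted p = 0.894) without replicate 1, the lowest. Whether the probes of the paralogs bind each other's RNA was not tested.

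bZIP52, a group I factor related to VIP1, rose in petal and cotyledon callus. The log2 ratio of bZIP52 was 0.81, 1.08, 1.00 and 1.29 on the petal arrays, 0.47, 1.30, 0.71 and 0.95 on the cotyledon arrays, and 0.29, 0.31, 0.02 and 0.28 on the root arrays. The root ratios were the lowest, with no overlap with either other organ. The mean was 1.04 ± 0.20 in petal (adjusted p = 3.1e-06, limma), 0.86 ± 0.36 in cotyledon (adjusted p = 2e-05) and 0.23 ± 0.14 in root (adjusted p = 0.0722; SD, n = 4 arrays each), or 2.06-fold higher in petal callus and 1.81-fold higher in cotyledon callus. Petal minus root was 0.82 (adjusted p = 0.000619), cotyledon minus root 0.63 (adjusted p = 0.00363) and petal minus cotyledon 0.19 (adjusted p = 0.298).

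bZIP58, of group S, was the least even of the 10 genes between replicates. Log2 ratios were -5.41, -3.78, -1.23 and -0.16 on the petal arrays, -0.08, -0.38, -0.35 and -2.53 on the cotyledon arrays, and -2.42, -2.30, -2.34 and -2.66 on the root arrays. All ratios were below 0, but the petal arrays spread over more than 5 log2 units and 1 cotyledon array stood apart, while the root arrays lay close together. The mean was -2.64 ± 2.39 in petal (adjusted p = 0.00622, limma), -0.84 ± 1.14 in cotyledon (adjusted p = 0.322) and -2.43 ± 0.16 in root (adjusted p = 0.0134; SD, n = 4 arrays each).

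The petal value of bZIP58 moved to -1.61 (adjusted p = 0.0354, limma) without petal replicate 1 and did not pass with petal fitted on its own (-2.64, 0.0688). The differences between organs did not pass, at -0.21 for petal minus root (adjusted p = 0.869), 1.59 for cotyledon minus root (adjusted p = 0.216) and -1.81 for petal minus cotyledon (adjusted p = 0.169). Without petal replicate 4, petal minus cotyledon was -2.74 (adjusted p = 0.0291). In a fit of cotyledon and root without the petal arrays, cotyledon minus root passed (1.59, 0.0235).

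**Figure D3:**
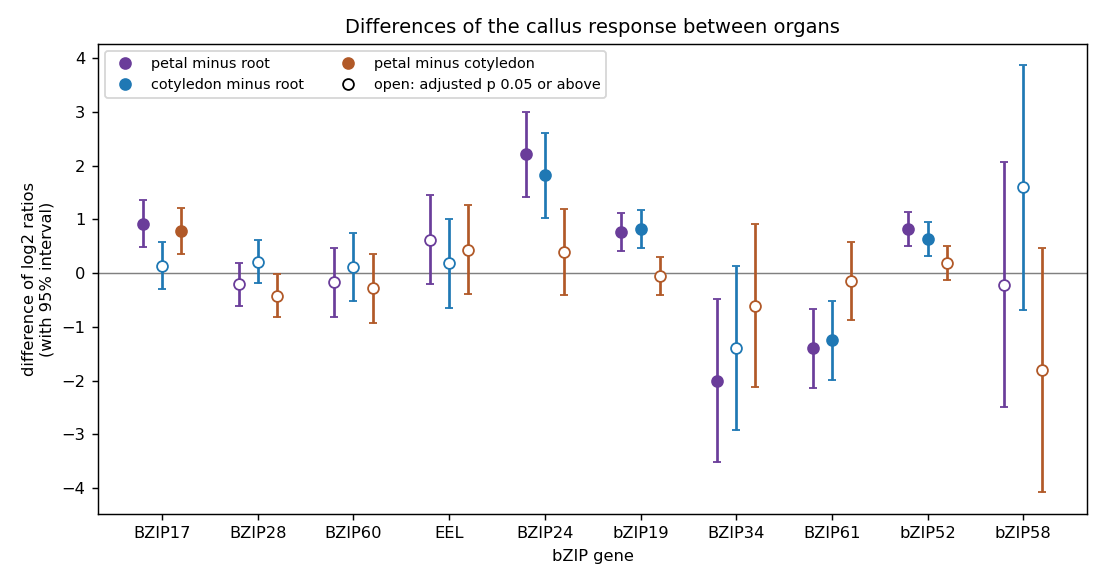
Difference of the log2 ratio of callus over explant between organs (petal minus root, cotyledon minus root, petal minus cotyledon) for the 10 bZIP genes, with 95% intervals. Filled marks passed at an adjusted p under 0.05. BZIP24 shows the largest positive differences from root (2.21 and 1.82), and BZIP17 is the 1 gene whose petal and cotyledon ratios differed by the test (0.78).

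Across the 10 genes, the response differed between petal and root for 6, between cotyledon and root for 4 and between petal and cotyledon for 1. The background for these contrasts is 60.1%, 53.9% and 49.5% of all tested genes. The 4 arrays of the organs did not overlap for 5, 3 and 1 of the 10 genes, where 52.3%, 52.9% and 44.4% of the 8973 genes measured on all 12 arrays did not overlap. The counts for petal and root stand near the background. Those for cotyledon and root, and more so those for petal and cotyledon, lie under it, which for 10 genes is a description and no test. The organ comparisons share the arrays of each organ, so their counts are not independent of each other.

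Replicate spread differed widely among the bZIP genes. The SD over 4 arrays ran from 0.11 for bZIP19 in cotyledon to 2.39 for bZIP58 in petal, with a median of 0.34 over the genes and organs. The medians over all genes measured on all 12 arrays were 0.34 in petal, 0.24 in cotyledon and 0.26 in root. All 4 ratios of an organ lay on the same side of 0 in 24 of the 30 pairs of gene and organ, and in all 21 pairs that passed. Over genes measured on all 12 arrays that held for 78.9% in petal, 79.2% in cotyledon and 71.2% in root. The dye term of the limma fit passed for 0 of the 10 bZIP genes, for 1 of them, bZIP52, before adjustment, and for 3.62% of all genes.

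**Figure D4:**
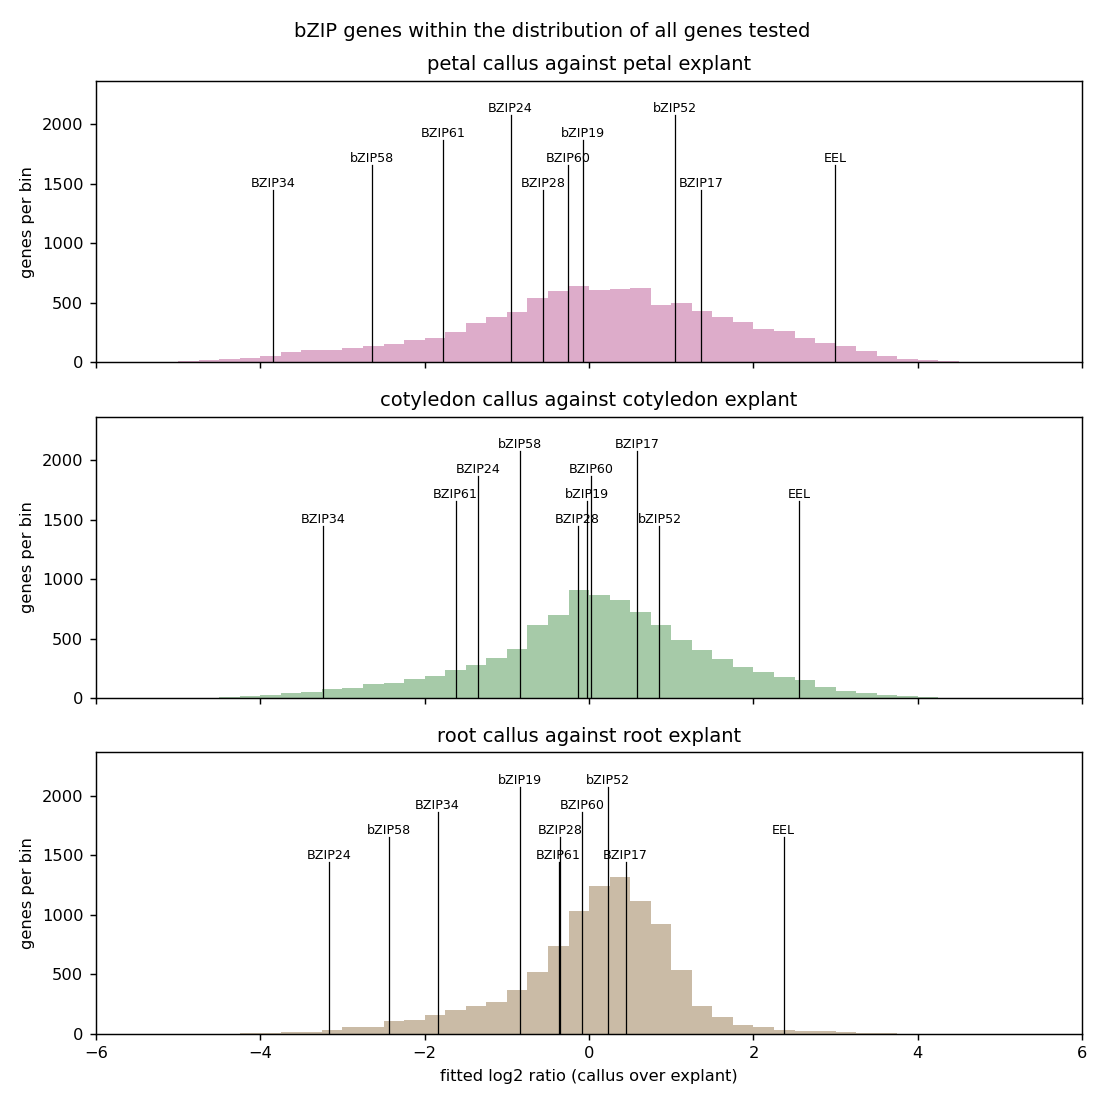
Number of tested genes (vertical axis) by log2 ratio of callus over explant in petal, cotyledon and root, with the position of each of the 10 bZIP genes marked. EEL lies in the upper tail in every organ, BZIP34 in the lower tail, and BZIP24 in the far lower tail in root.

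Of 62 other bZIP genes in a list of the family, 18 had a named probe and 9 were tested. In petal 5 rose, 1 fell and 3 did not pass, in cotyledon 4 rose, 1 fell and 4 did not pass, and in root 3 rose, 0 fell and 6 did not pass (limma; 1 was lower before adjustment). The shares that passed, 6 of 9, 5 of 9 and 3 of 9, lie under the 78.6%, 71% and 62.8% of all tested genes. Their median ratio was 0.41 in petal, 0.08 in cotyledon and 0.26 in root. AT1G19490 had the highest ratio in petal (1.74 ± 0.21) and AT1G06070 in root (0.83 ± 0.53; SD, n = 4 arrays each), and both passed.

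bZIP70 had the highest ratio of these genes in cotyledon, 3.43 ± 0.54 (SD, n = 4 arrays, adjusted p = 0.00332, limma), on arrays of 3.49, 3.72, 3.84 and 2.65. In petal its arrays ran from -4.37 to 1.45 with a mean of -0.94 (adjusted p = 0.299), the lowest of the list there. The lowest in cotyledon was AT5G44080 at -0.18 ± 0.14 (adjusted p = 0.0476, lost under 16 of 22 alternatives), and the lowest in root was AT2G40620 at -0.34 ± 0.36 (adjusted p = 0.0572).

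The named genes most like the ER stress members were sought in the same way among 1088 genes. For BZIP17 they were TRZ3 and ZCW7, at root mean square differences of 0.266 and 0.286, against a median of 1.30. For BZIP28 they were VPS46.2 and DER1, at 0.251 and 0.26 against 1.23, and for BZIP60 VPS2.1 and VPS46.2, at 0.303 and 0.343 against 1.21. Genes with ratios near 0 everywhere are alike by this measure whatever they do.

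Marker genes were described through ratios alone, since the levels in callus and in explant were not analysed here. These ratios do not tell one labelled organ from another, so the labels were not checked. Of 13 photosynthesis genes, markers of green tissue, 7 were tested. Of these, 7 of 7 passed as lower in petal callus, 6 of 7 in cotyledon callus and 7 of 7 in root callus than in the explant. Of all tested genes, 33.4%, 30.3% and 23% passed as lower in the same order. The medians were -3.51, -3.23 and -1.99. In cotyledon, callus in Cy5 and in Cy3 gave -1.04 and -5.42 for LHB1B2, -1.20 and -4.53 for RCA, and -0.38 and -3.36 for PSBY. LHCB4.3 went the other way there, at -0.03 and 0.53. LHCB4.3 in cotyledon was the exception among the calls, at 0.25 (adjusted p = 0.303, limma). Of 5 root hair genes, 2 had a probe, and both were tested. EXPA7 had 1.72 in petal, 1.75 in cotyledon and -0.25 in root, and EXPA18 had 0.71, -0.61 and 0.57 in the same order. The cotyledon value of EXPA18 rests on 3 arrays, from -2.56 to 1.23, with replicate 2 at the lower limit. In petal, callus in Cy5 and in Cy3 gave -0.61 and 2.04 for EXPA18. EXPA7 passed in petal and cotyledon but not in root (adjusted p = 0.358, limma), and EXPA18 did not pass in any organ.

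Over the series, 13.9% of 299112 deposited ratios were at a limit, from 1.99% on cotyledon replicate 1 to 28.2% on petal replicate 2. Petal replicate 2 is also the array with the lowest ratio of BZIP34, and the part of the limits in that ratio was not tested.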

How the data were processed

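The authors deposited 1 table of log2 ratios for 12 2-colour arrays, read as log2 from its values. Its scanner, background correction and normalization are not stated in the labels. Intensities were not analysed here, so signal over background is unknown. RNA was amplified with T7 polymerase and dyes were coupled afterwards, per the labels' protocols. Values within 1e-04 of 6.64 or -6.64, the log2 of 100-fold, or at a floor of -33.22, bound a ratio and were treated as missing. Of 24926 probes with a value, 18169 were measured on at least 3 of 4 arrays of every organ, and 9886 of these had a gene (9694 genes, 188 of them averaged over several probes). Of 13960 probes with 1 gene, 12130 others having none, 13912 matched RefSeq. Control probes (450) were left out. No further normalization was applied.

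limma 3.58.1 (R 4.3.3) was fitted with a coefficient for each organ and a dye term. Differences between organs came from the same fit. On simulated data, planted changes of 0.5 log2 units were recovered at 23.9% in petal, 31.3% in cotyledon and 26.9% in root. For differences between organs, 8.96% to 11.9% were recovered at 0.5 log2 units and 41.8% to 53.7% at 1. Far fewer genes were changed in the simulation than passed in the data, so these shares need not hold for the data. The number of arrays limits the precision. In the fit of all 12 arrays, a gene's p-values and intervals rest on a spread between replicates shared by the 3 organs. That spread can differ from the SD of an organ's own 4 replicates. For bZIP58 in root the SD was 0.16 and the interval -4.04 to -0.82, with an SD of 2.39 in petal. For BZIP60 in petal the SD was 0.18 and the interval -0.71 to 0.20, with an SD of 0.61 in cotyledon. All 10 members of the rule are named, with genes of the lists as counts, their highest and lowest ratios, all tested ER stress and zinc genes, and the 2 most similar named genes of 5 members. The bZIP genes and gene lists were chosen with earlier results of these data known. Settings tried were no dye term, limits kept, 2 centrings, organs fitted alone, other probe filters, probes not averaged, robust variances, a replicate block and each array left out. For a difference between organs, fitted alone means a fit of its 2 organs without the third.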

Additional observations from a re-analysis of the deposited data

Results flagged for a closer look

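In 4 of 62 groups of 4 arrays, the highest or lowest array stood apart from the other 3 by Dixon's test, which flags about 1 group in 20 by chance. BZIP24 in root had -2.58 on replicate 3, above the other root arrays, and bZIP52 in root had 0.017 on replicate 3, below the others. bZIP58 in cotyledon had -2.53 on replicate 4 and CRT1b in root had -1.20 on replicate 4, both below the others.

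The change from explant to callus differed between organs, by a contrast within the limma fit, in 19 of 42 contrasts of the 10 bZIP genes and the 4 tested genes of the ER stress list. Of all tested genes, 60.1% differed between petal and root, 53.9% between cotyledon and root and 49.5% between petal and cotyledon, so the count itself does not set these genes apart. BZIP17 had 0.92 for petal minus root and 0.78 for petal minus cotyledon. bZIP19 had 0.77 for petal minus root and 0.82 for cotyledon minus root, and BZIP24 had 2.21 and 1.82. BZIP34 had -2.00 for petal minus root. BZIP61 had -1.40 for petal minus root and -1.25 for cotyledon minus root, and bZIP52 had 0.82 and 0.63.

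Among the ER stress genes, AT5G07340 had 1.11 for petal minus root and 1.15 for petal minus cotyledon. CRT1b had 2.61 for petal minus root and 2.25 for cotyledon minus root. DER1 had -0.71 for petal minus cotyledon, lost with centring on all values (-0.45, adjusted p = 0.219, limma), and 0.71 for cotyledon minus root. OS9 had 0.32 for petal minus root, which did not pass under 15 of 22 alternatives (adjusted p from 0.0233 to 0.128, limma), and 0.45 for cotyledon minus root, lost with centring on all values (0.69, adjusted p = 0.0777).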

How the results depend on the processing

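Of 32 differences of the bZIP genes that passed, 24 kept their direction and their side of the threshold under all 22 alternatives, and none of the 32 reversed (0 of 32); those that changed are given with the gene. With each probe tested on its own (18169 probes), 14089 passed in petal, 12971 in cotyledon and 11239 in root, against 7621, 6881 and 6090 genes, and the contrasts had 10817 for petal minus root, 9876 for cotyledon minus root and 8903 for petal minus cotyledon, against 5823, 5224 and 4800, since more features were tested. With arrays centred on tested probes, 2 bZIP genes differed between petal and cotyledon in place of 1.

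Centring on tested probes moved the median of all genes by -0.18 in petal, -0.12 in cotyledon and -0.16 in root, centring on all values by 0.42, 0.17 and -0.07, and keeping ratios at a limit by -0.83, -0.46 and -0.10. The share of higher genes among those that passed was 57.6% in petal and 63.4% in root. It was 70.0% in petal with centring on all values and 44.6% with limits kept. In root it was 52.2% with centring on tested probes. With centring on all values it was 77.5% against 55.6% for petal minus root and 66.0% against 50.1% for cotyledon minus root, and petal minus root, still passing, was 1.42 for BZIP17, 1.27 for bZIP19 and 1.31 for bZIP52.

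Ratios that had not passed reversed as follows. With centring on tested probes, cotyledon gave -0.088 for BZIP60, -0.023 for DER1 and -0.048 for ZIP9, root -0.12 for OS9, and petal -0.018 for AT5G44080. With centring on all values, petal gave 0.17 for BZIP60 and 0.35 for bZIP19, cotyledon 0.029 for BZIP28 and 0.14 for bZIP19, and root -0.033 for OS9. There, petal minus root was 0.29 for BZIP28, 0.32 for BZIP60 and 0.28 for bZIP58, and petal minus cotyledon 0.20 for bZIP19 and 0.10 for BZIP61. With limits kept, bZIP70 in root was 1.41. The cause was not tested.

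With 1 array left out, 1 to 3 bZIP genes differed between petal and cotyledon, 5 to 7 between petal and root, and 5 to 7 passed in root. Ratios that had not passed changed sign in some of these fits. BZIP60 ran from -0.236 to 0.242 in cotyledon and -0.247 to 0.023 in root, bZIP19 from -0.22 to 0.0402 in petal and -0.055 to 0.0202 in cotyledon, DER1 from -0.019 to 0.194 and ZIP9 from -0.031 to 0.149 in cotyledon, OS9 from -0.035 to 0.117 in root, and bZIP70 from -1.86 to 0.36 in petal and -0.70 to 0.216 in root. Petal minus root ran from -1.15 to 0.823 for bZIP58, petal minus cotyledon from -1.01 to 0.134 for BZIP34 and -0.196 to 0.064 for bZIP19, and cotyledon minus root from -0.150 to 0.328 for BZIP60 and -0.0018 to 0.258 for EEL.

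Deviations of same-numbered arrays of different organs correlated at -0.02 to 0.30 (median 0.19), and those of arrays with the same dye but another number at -0.17 to 0.32 (median 0.16). Between petal and cotyledon all 4 same-numbered pairs lay at 0.18 to 0.29, against 0.18 to 0.22 for the same dye and another number. For these organs the numbers could not be told apart from the dye. Between root and petal, replicates 2, 3 and 4 paired by number lay at 0.25, 0.30 and 0.27, and replicate 1 at -0.02. Arrays of the same dye and another number lay there at -0.17 to 0.12. Between root and cotyledon, same-numbered pairs lay at -0.01 to 0.23 and those of the same dye and another number at -0.005 to 0.32. Whether same-numbered arrays share a source was not tested. With the replicate number as a block, 7640 genes passed in petal, 6823 in cotyledon and 5994 in root, and 4676 differed between petal and cotyledon. None of the 10 bZIP genes changed its call, while AT5G44080 in cotyledon (-0.18, adjusted p = 0.0800, limma) and OS9 for petal minus root (0.32, 0.0526) lost theirs. Signal over background, which limits each ratio, was not analysed here.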
